A study of Cricetiscus sungorus with 16 samples.

Results

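The insulin-like growth factor (IGF) genes of the ovary were followed through 10 transcript identifiers of a mouse array hybridised with Siberian hamster RNA. They stand for the ligands Igf1 (NM_010512) and Igf2 (NM_010514) and the receptors Igf1r (NM_010513) and Igf2r (NM_010515). The binding proteins are Igfbp2 (NM_008342), Igfbp3 (NM_008343), Igfbp4 (NM_010517), Igfbp5 (NM_010518), Igfbp6 (NM_008344) and Igfbp7 (NM_008048). The members were chosen by the RefSeq identifiers on the array, not by their values, though with earlier results of these data known. They make up 10 of the array's 33272 identifiers, with 15 probes of 41174. Of the 10, 7 passed the detection filter and were tested among 20143 identifiers. Igf2r, Igfbp3 and Igfbp6 did not pass it.

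Females were raised either with 16 h of light a day (long days, LD) or with 10 h (short days, SD), and their ovaries were collected when they were 3 or 8 wk old. The groups were LD at 3 wk, SD at 3 wk, LD at 8 wk and SD at 8 wk, of 4 hamsters each. Every one of the 16 arrays carried RNA from the ovary pair of a single animal. No transgene, drug or hormone treatment is given in the labels, so day length and age are all that set the groups apart there. For the 4 SD hamsters at 8 wk the labels conflict, with the letters SD and 16 h of light in the title, 16 h in the treatment field and 10 h in the description. They were taken as SD with 10 h, which was not checked from another source, and every call reported here rests on this group.

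IGF1 and IGF2 are secreted peptides that act on the tyrosine kinase receptor IGF1R, while IGF2R, which has no kinase, takes up IGF2 for breakdown. The binding proteins carry the ligands and mostly hold them away from the receptor, and proteases that cut the binding proteins release the ligands. In the rodent ovary IGF1 is a product of granulosa cells and strengthens their response to follicle-stimulating hormone, and the balance of ligand and binding protein is known to differ between growing and atretic follicles.

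A level here is log2 of a probe's processed intensity minus the array's 75th percentile, so 0 is the brightness that 75% of the probes stay below. Each slide carried 1 array of every group, and the 4 levels of a group are given in slide order. That percentile lay between 269 and 1007, with slide 1 dimmest, and an array had 58.0% to 75.7% of its probes well above background. A group kept 1 array position on all slides, and position and group cannot be told apart. Changes are of mouse probes' signal, and it was not tested that this signal came from the hamster's own transcript of the gene. Because whole ovaries were used, fewer cells of a type and less RNA per cell cannot be told apart. Markers of ovarian cell types are listed by gene symbol and could not be matched to the array's identifiers, so cell makeup and the labelled tissue were not tested.

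In SD ovaries both ligands fell between 3 and 8 wk while the binding protein Igfbp2 rose. Igf1 signal fell 3.91-fold and Igf2 signal 2.11-fold, and Igfbp2 signal rose 1.80-fold, with 4 hamsters in each group. These were 3 of the 7 tested members, where 9.15% of all tested identifiers were called in that comparison (4.77% higher and 4.38% lower). At 8 wk Igf2 was lower in SD than in LD ovaries, 1 of 7 members against 0.958% of all identifiers (0.735% higher and 0.223% lower). In the LD age comparison 0 of the 7 passed, against 2.98% of all identifiers. At 3 wk 0 of the 7 passed either, and the share over all identifiers was 0%.

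At an unadjusted limma p under 0.05 the LD age comparison counted 1 member, Igf2, and 13.4% of all identifiers, and the 3 wk comparison 0 members and 1.64%. The same looser rule counted 4 members (6.94% of all identifiers) between photoperiods at 8 wk and 3 (20.4%) in the SD age comparison. With slide as a block in the limma fit, 3 members were called in the SD age comparison and 0 in LD, where 23.1% and 11.9% of all identifiers were called, and 0 at 3 wk.

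**Figure D1:**
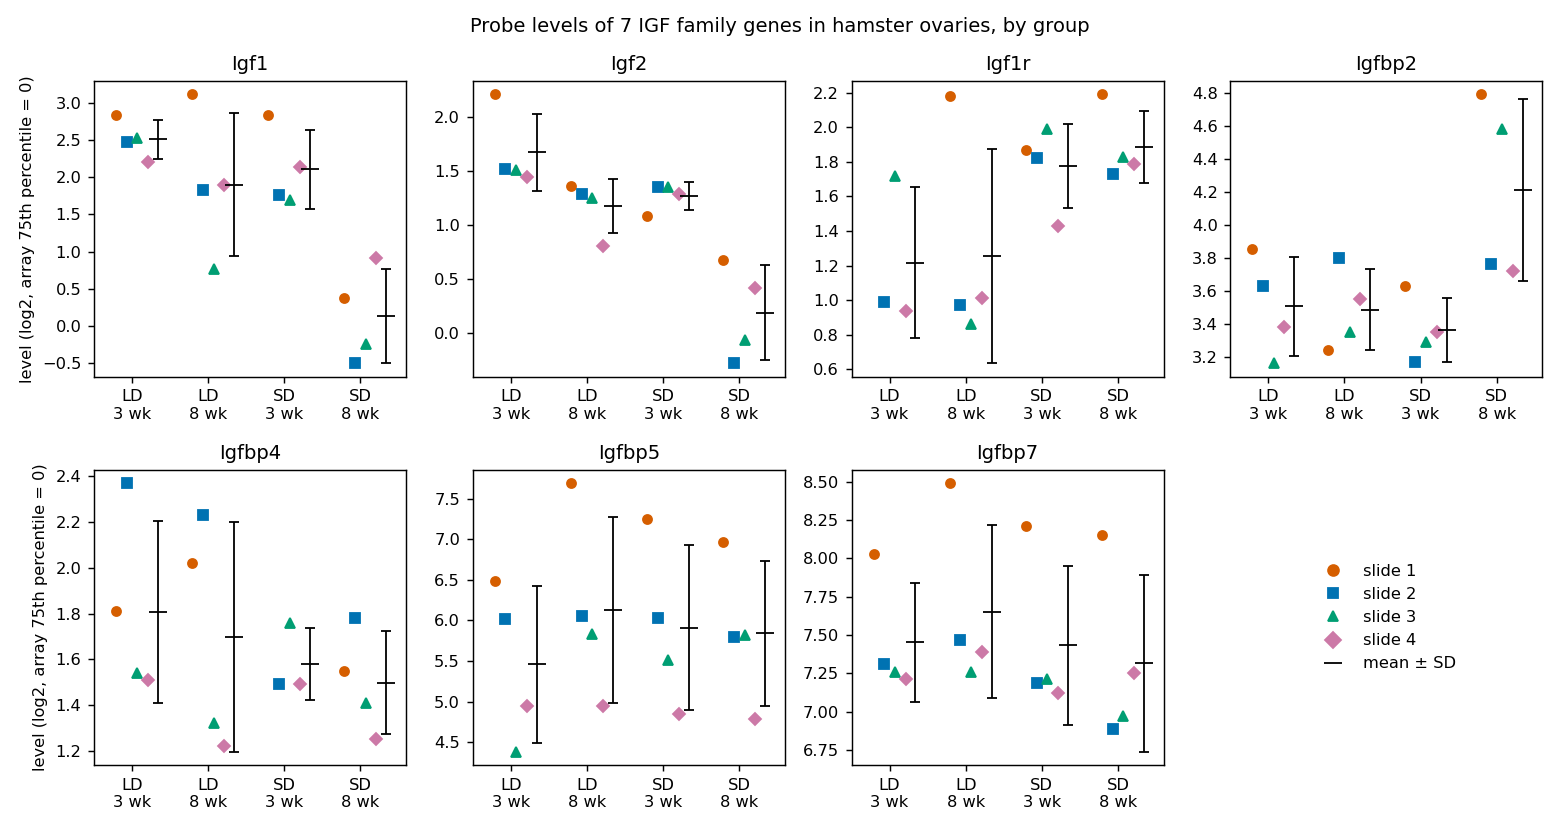
Levels of the 7 tested members (log2, relative to the array's 75th percentile) in each hamster by group, coloured by slide, with the group mean and SD in black. Igf1 and Igf2 are lowest in the SD group at 8 wk (means 0.14 and 0.19), where Igfbp2 is highest (mean 4.21). Igfbp4, Igfbp5 and Igfbp7 follow the slide more than the group. For Igf1r, slide and group take close shares of the variance (38.8% and 34%).

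Igf1, the growth factor that acts with gonadotropins on granulosa cells, was read by a probe spotted 10 times on each array. Its levels in the LD group at 3 wk were 2.84, 2.47, 2.52 and 2.20, and in the SD group at 3 wk 2.84, 1.76, 1.69 and 2.13. At 8 wk they were 3.11, 1.83, 0.77 and 1.89 in LD and 0.38, -0.50, -0.24 and 0.91 in SD. All 4 SD ovaries at 8 wk lay below every ovary of 3 wk. Between ages in SD, 15.9% of all identifiers had groups without overlap. The LD ovaries at 8 wk spread from below to above those of 3 wk. The lowest of these LD ovaries fell below the highest SD ovary of their age. The group means in descending order were 2.51 ± 0.26 (LD, 3 wk), 2.10 ± 0.53 (SD, 3 wk), 1.90 ± 0.96 (LD, 8 wk) and 0.14 ± 0.64 (SD, 8 wk; SD of 4 hamsters in each case). The first 3 of these groups overlapped one another.

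The age change of Igf1 in SD was -1.97 on the log2 scale (SE 0.41, 95% interval -2.83 to -1.10), with a limma adjusted p of 0.006. Within slides it ran from -2.46 to -1.22, lower on 4 of 4. In LD the age difference was -0.60 (SE 0.41), with a limma adjusted p of 0.622 and within-slide values from -1.75 to 0.27. It was thus lower at 8 wk on every slide in SD and on 3 of 4 in LD. The test of that difference (SD age change less LD age change) gave -1.36 (SE 0.58, 95% interval -2.58 to -0.14), with an unadjusted p of 0.0314 and a limma adjusted p of 1. It was not called, and neither was any other member, against 0.0596% of all identifiers (with slide as a block 0 members and 0.174%). At an unadjusted p under 0.05 this limma test counted 2 members, Igf1 and Igfbp2, and 3.05% of all identifiers. The 5 comparisons share arrays: the SD group at 8 wk enters both the SD age change and the photoperiod difference at 8 wk.

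Between photoperiods at 8 wk Igf1 was 3.39-fold dimmer in SD than in LD, a difference of -1.76 (SE 0.41, 95% interval -2.63 to -0.90). This missed the threshold, with a limma adjusted p of 0.0532. With slide as a block in the limma fit the SE was 0.30 and the adjusted p 0.00642, and Igf1 became a second called member beside Igf2, where 2.62% of all identifiers were called. On each slide the SD ovary was the dimmer, by -2.73, -2.33, -1.01 and -0.98. Leaving out LD 8 wk replicate 3, the low LD ovary, gave -2.14 with a limma adjusted p of 0.00941, and leaving out SD 8 wk replicate 4 gave -2.02 with 0.0265. Leaving out any of the other 6 arrays of these groups gave -1.84 to -1.36 with limma adjusted p from 0.0904 to 0.228, none of them a call, and fitting only the groups compared gave 0.254. At 3 wk the difference was -0.40 (95% interval -1.27 to 0.46), with a limma adjusted p of 1.

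Igf2, the ligand best known as a fetal growth factor and still made in the rodent ovary after birth, was also spotted 10 times. Levels at 3 wk were 2.21, 1.52, 1.51 and 1.45 in LD and 1.08, 1.35, 1.35 and 1.29 in SD. At 8 wk they were 1.36, 1.29, 1.25 and 0.81 in LD and 0.68, -0.28, -0.06 and 0.42 in SD. The SD ovaries at 8 wk did not overlap any other group (4.11% of all identifiers had no overlap between photoperiods at 8 wk and 15.9% between ages in SD), and the LD ovaries at 3 wk all lay above those of the remaining groups. The means were 1.67 ± 0.36 (LD, 3 wk), 1.26 ± 0.13 (SD, 3 wk), 1.18 ± 0.25 (LD, 8 wk) and 0.19 ± 0.44 (SD, 8 wk), and the SD group at 3 wk and the LD group at 8 wk overlapped.

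With age in SD, Igf2 changed by -1.07 (SE 0.22, 95% interval -1.53 to -0.61), with a limma adjusted p of 0.00492 and within-slide values from -1.63 to -0.40. At 8 wk the SD ovaries were 1.98-fold dimmer than the LD ovaries, a difference of -0.99 (SE 0.22, 95% interval -1.45 to -0.53), with a limma adjusted p of 0.039. That call was close to the threshold. Within slides the 8 wk difference was -0.68, -1.58, -1.31 and -0.38. It was lost on leaving out LD 8 wk replicate 1, 2 or 3 (limma adjusted p 0.109, 0.132 and 0.079) or SD 8 wk replicate 2 or 3 (0.171 and 0.153). In these fits the difference stayed between -0.96 and -0.83.

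In LD the age difference of Igf2 was -0.49 (SE 0.22, 95% interval -0.95 to -0.03), lower on 4 of 4 slides, with a limma adjusted p of 0.315. At 3 wk the SD ovaries were lower by -0.41 (SE 0.22), with a limma adjusted p of 1. In both cases the groups did not overlap although the test was not passed, and 8.71% and 1.71% of all identifiers likewise had groups without overlap. At 3 wk the size came mostly from slide 1, with -1.13 there and -0.17, -0.16 and -0.16 on the others. Without slide 1 the 3 wk difference was -0.17 (SE 0.17). The Igf2 age change in SD minus that in LD was -0.58 (95% interval -1.23 to 0.07), with a limma adjusted p of 1.

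The repeated spots show how finely a single array read these ligands. Within an array the SD between Igf1 spots was 0.05 at the median (0.03 to 0.08), against 0.65 between arrays of a group. For Igf2 it was 0.05 (0.02 to 0.18) against 0.32. Arrays of a group differ in slide as well as in hamster. Slide accounted for 15.8% of the Igf1 variance, and 11.8% was left by slide and group. For Igf2 these shares were 5.88% and 14.4%. The spread in the ligand levels lay between arrays, each of which holds another hamster, far more than between spots of an array.

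Igf2 had another, dimmer probe, A_51_P516833, spotted once. Its means were -1.20 ± 0.61 (LD, 3 wk), -1.21 ± 0.40 (SD, 3 wk), -1.35 ± 0.99 (LD, 8 wk) and -2.37 ± 0.88 (SD, 8 wk). The age change in SD was -1.16 (SE 0.47, limma adjusted p 0.16) and the photoperiod difference at 8 wk -1.02 (SE 0.47, limma adjusted p 0.694). The sizes were close to those of the brighter probe, -1.07 and -0.99, and the wider error left both uncalled. The 3 wk difference of the brighter probe was not repeated, at 0.00 (95% interval -1.01 to 1.0).

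**Figure D2:**
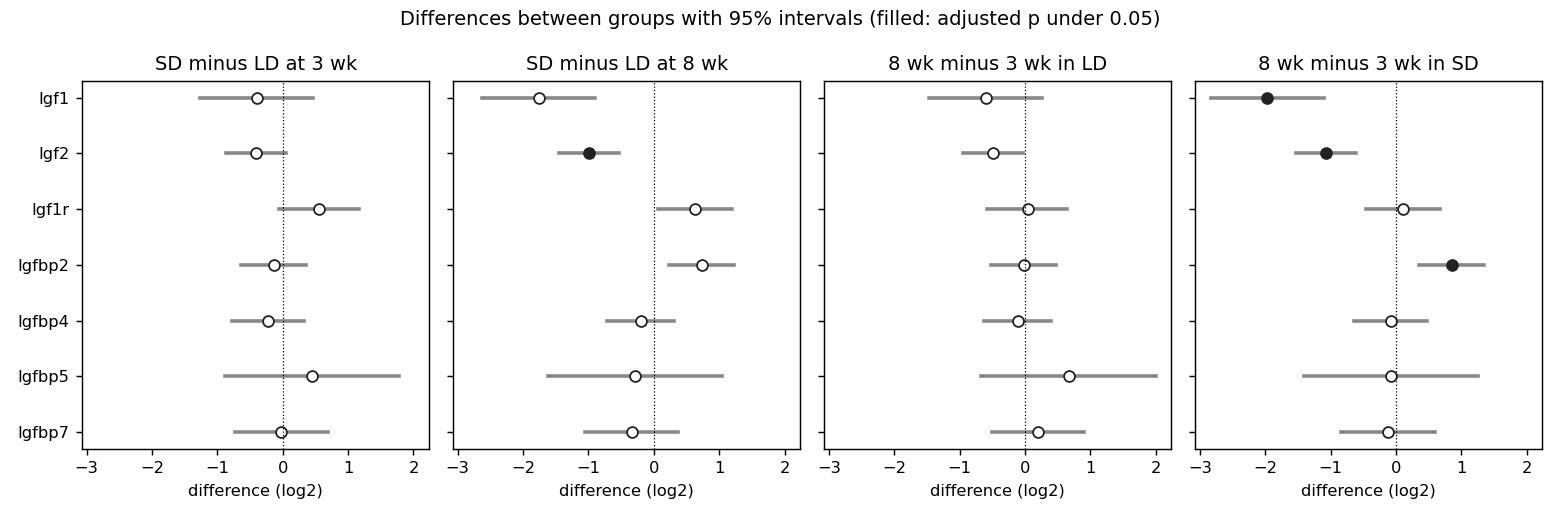
Differences between groups (log2) of the 7 tested members in the 4 pairwise comparisons, with 95% intervals from the fit over 16 arrays; filled points have an adjusted p under 0.05. The filled points are Igf2 at 8 wk (-0.99) and Igf1, Igf2 and Igfbp2 in the SD age change (-1.97, -1.07 and 0.85).

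Igf1r, the kinase receptor that carries the signal of both ligands, was represented by 3 probes. On the brightest, the levels at 8 wk were 2.18, 0.97, 0.86 and 1.01 in LD and 2.19, 1.73, 1.83 and 1.79 in SD. At 3 wk they were 0.99, 1.72 and 0.94 in LD, where the spot of slide 1 was flagged as an outlier and left out, and 1.87, 1.82, 1.99 and 1.43 in SD. A single LD ovary at 8 wk, that of slide 1, stood with the SD ovaries, and the other LD ovaries of that age lay below all of them.

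The Igf1r difference at 8 wk was 0.63, SD above LD (SE 0.27, 95% interval 0.06 to 1.20), and was not called (limma adjusted p 0.585). Within slides it was 0.01, 0.75, 0.97 and 0.79. Without LD 8 wk replicate 1 it was 0.94, with a limma adjusted p of 0.0483. The other probes gave 0.30 (SE 0.18) and 0.49 (SE 0.20), with limma adjusted p of 0.99 and 0.532. All 3 probes thus read higher in SD at 8 wk, and none passed over all arrays. At 3 wk they did not share a direction: the brightest gave 0.56 (limma adjusted p 1) and the others -0.05 and 0.00. With age, the brightest probe differed by 0.04 in LD (95% interval -0.58 to 0.65) and by 0.11 in SD (95% interval -0.46 to 0.68).

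Igf2r, the receptor that clears IGF2, was near background. Its probe was well above background on 9 of 16 arrays, never on all 4 of a group, and its processed intensity ran from 4.04 to 34.1. It was not tested, and no fold is given.

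**Figure D3:**
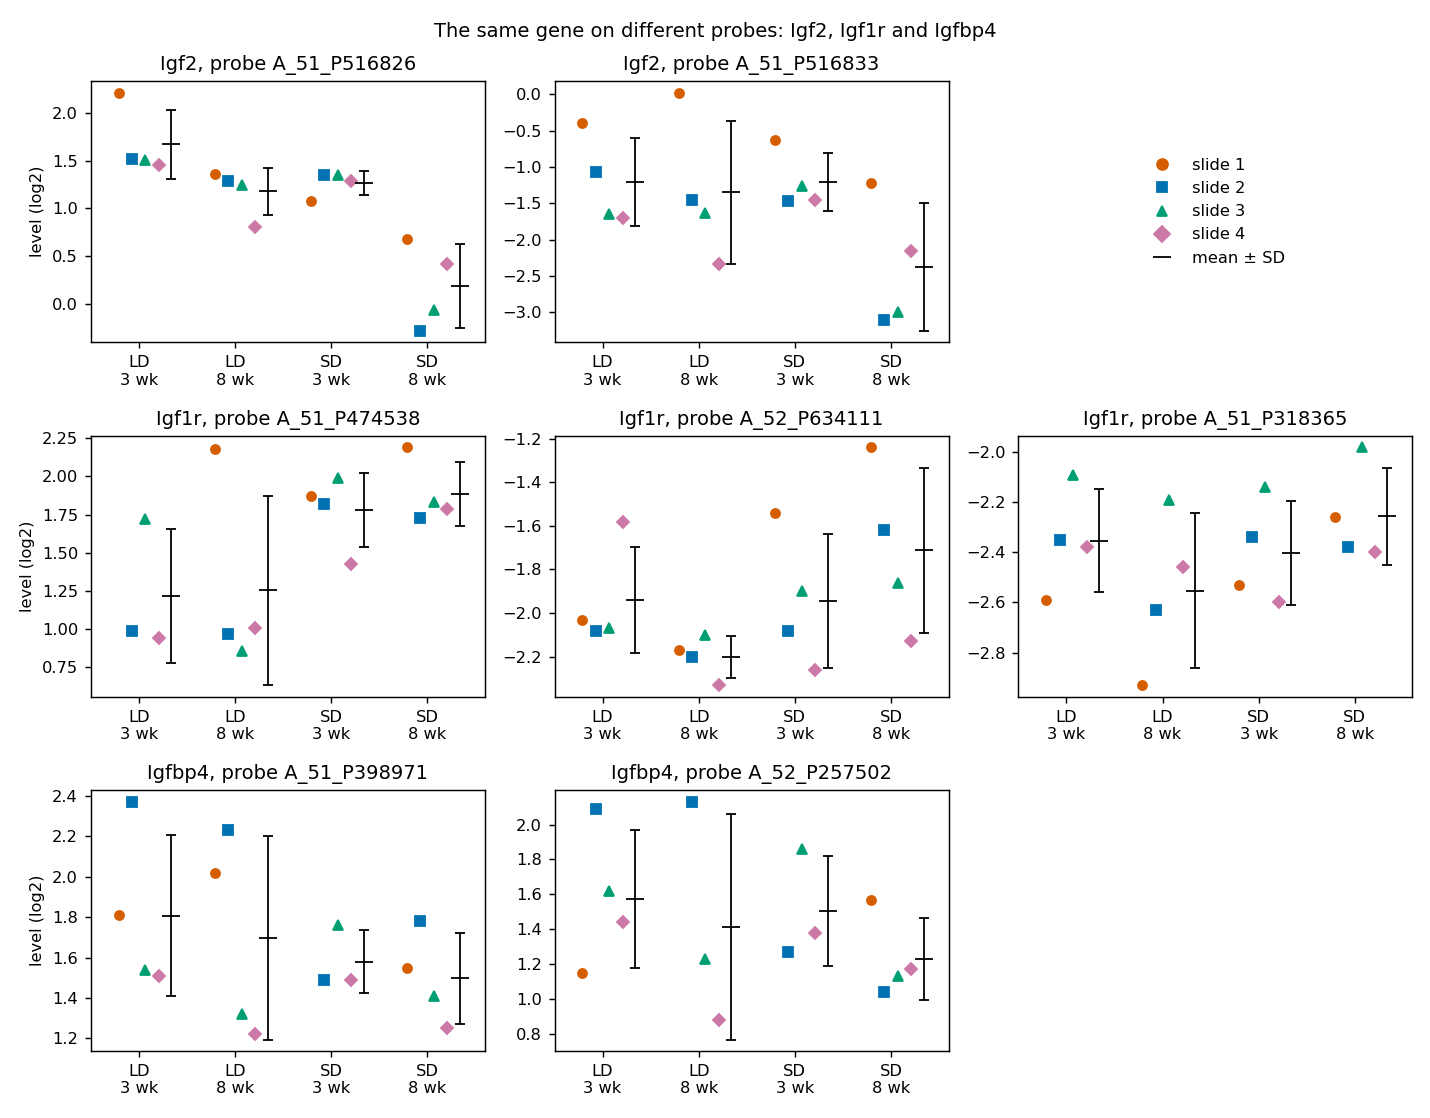
Levels (log2, relative to the array's 75th percentile) of every probe of Igf2, Igf1r and Igfbp4 by group, coloured by slide, with mean and SD; each panel has its own axis. Both Igf2 probes are lowest in SD at 8 wk (means 0.19 and -2.37), while the Igf1r probes differ by 0.63, 0.30 and 0.49 between SD and LD at 8 wk.

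Igfbp2, a binding protein that takes up both ligands with a preference for IGF2, moved against them. Its levels at 3 wk were 3.85, 3.63, 3.16 and 3.38 in LD and 3.63, 3.17, 3.29 and 3.35 in SD. At 8 wk they were 3.24, 3.80, 3.35 and 3.55 in LD and 4.79, 3.76, 4.58 and 3.72 in SD. Among the SD ovaries at 8 wk, those of slides 1 and 3 stood above every other ovary. The other pair lay just above the SD ovaries at 3 wk and within the LD range. The SD groups of both ages thus did not overlap, which held for 15.9% of all identifiers. The means were 3.50 ± 0.30 (LD, 3 wk), 3.36 ± 0.19 (SD, 3 wk), 3.48 ± 0.24 (LD, 8 wk) and 4.21 ± 0.55 (SD, 8 wk).

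The rise of Igfbp2 with age in SD was 0.85 (SE 0.24, 95% interval 0.35 to 1.35), with a limma adjusted p of 0.0328, and within slides it was 1.16, 0.58, 1.28 and 0.37. The call was lost without SD 3 wk replicate 2, 3 or 4 (limma adjusted p 0.101, 0.0791 and 0.0673) and without SD 8 wk replicate 1 or 3 (0.0956 and 0.106). Of these, SD 8 wk replicate 1 moved the value most, to 0.66. In LD the age difference was -0.02 (95% interval -0.52 to 0.48). The SD change exceeded the LD change by 0.87 (SE 0.33, 95% interval 0.16 to 1.58), higher on 4 of 4 slides, with an unadjusted p of 0.0195 and a limma adjusted p of 1. At 8 wk SD exceeded LD by 0.73 (SE 0.24), with a limma adjusted p of 0.267, and on slide 2 the difference was -0.04.

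Since Igfbp2 and the ligands were read on the same arrays, the log ratio of binding protein to ligand in an array does not depend on how arrays are scaled. The Igfbp2 to Igf1 signal ratio was 7.03-fold higher at 8 than at 3 wk in SD, with log2 changes of 3.62, 2.84, 3.22 and 1.59 on the 4 slides. In LD it was 1.5-fold higher, and the slides did not share a direction (-0.88, 0.81, 1.94 and 0.47). The Igfbp2 to Igf2 ratio was 3.79-fold higher in SD (log2 changes of 1.56, 2.21, 2.69 and 1.23) and 1.39-fold higher in LD (0.24, 0.40, 0.44 and 0.81), and so higher on 4 of 4 slides in both photoperiods. These ratios describe unequal change of the probe signals, carry no test of their own, and say nothing of the ratio of the molecules. In SD they join changes already called in opposite directions, so the higher ratio there is not a separate result.

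**Figure D4:**
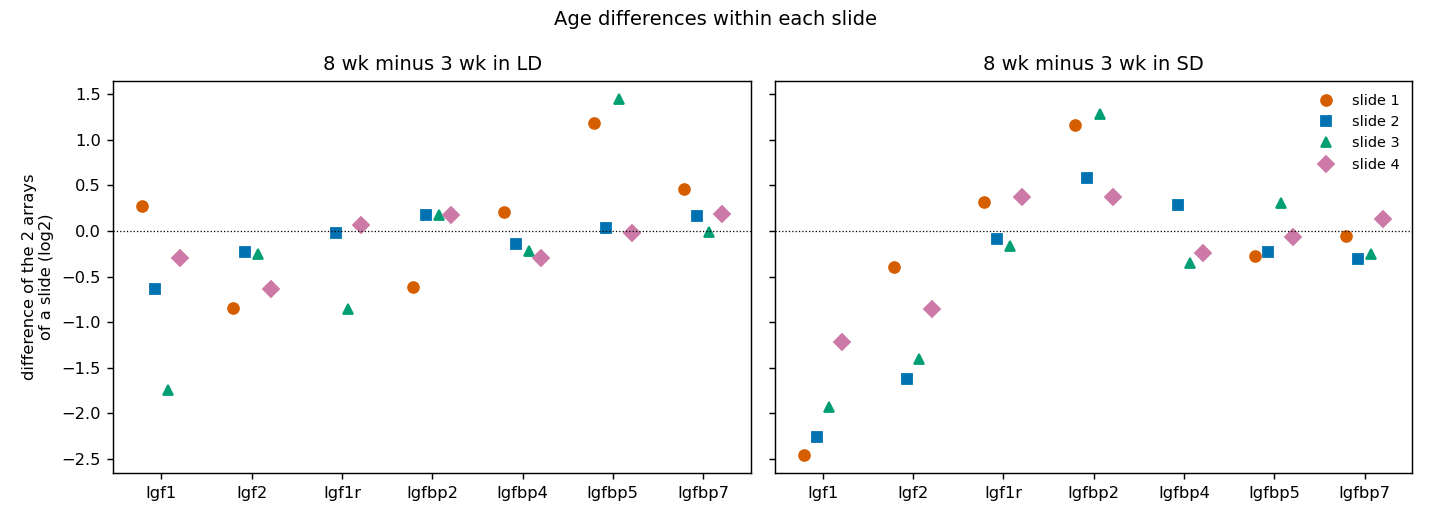
Difference of the 8 wk and the 3 wk array of each slide (log2) for the 7 tested members, in LD (left) and SD (right). In SD, Igf1 and Igf2 lie below 0 and Igfbp2 above 0 on all 4 slides. In LD, Igf2 also lies below 0 on all 4 slides (-0.85 to -0.23), and Igf1 runs from -1.75 to 0.27.

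Igfbp4, an inhibitory binding protein that the protease PAPP-A cuts in growing follicles, was not called in any comparison. Its levels at 3 wk were 1.81, 2.37, 1.54 and 1.51 in LD and 1.49, 1.76 and 1.49 in SD, where the spot of slide 1 was flagged and left out. At 8 wk they were 2.02, 2.23, 1.32 and 1.22 in LD and 1.55, 1.78, 1.41 and 1.25 in SD. The groups overlapped throughout. Slide accounted for 52.5% of the variance and group for 12.4%, with slide fitted first over 15 arrays. In the 4 pairwise comparisons the differences ran from -0.23 (SD minus LD at 3 wk, 95% interval -0.78 to 0.32) to -0.08 (SD age change, 95% interval -0.64 to 0.47). The SD age change less the LD age change was 0.03 (95% interval -0.73 to 0.78). Its other probe gave differences from -0.28 to -0.07 in the same pairwise comparisons. Changes of up to 1.72-fold lie inside the interval at 3 wk, so these arrays do not show that Igfbp4 was the same in the groups.

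Igfbp5, a binding protein that also attaches to the extracellular matrix, followed the slide. Its levels on slides 1 to 4 were 6.49, 6.02, 4.38 and 4.95 in LD at 3 wk and 7.25, 6.03, 5.51 and 4.85 in SD at 3 wk. At 8 wk they were 7.69, 6.05, 5.83 and 4.94 in LD and 6.96, 5.80, 5.82 and 4.78 in SD. Slide 1 was the highest in every group, though its unscaled intensity was not the highest in any of them. Slide accounted for 83.0% of the variance of the levels and group for 7.0%. Of the 4 pairwise differences the widest was the LD age difference of 0.67 (95% interval -0.67 to 2.0, limma adjusted p 0.791), which was 1.19 and 1.45 on slides 1 and 3 and 0.03 and -0.02 on the others. With slide as a block its interval was 0.16 to 1.17 and the limma adjusted p 0.086. In the SD age comparison the value was -0.07 (95% interval -1.40 to 1.26). The SD age change less the LD age change was -0.73 (95% interval -2.62 to 1.15), and with slide as a block its interval was -1.45 to -0.02, with limma adjusted p of 1 and 0.573. A dim Igfbp5 probe differed by -0.69 between SD and LD at 8 wk and by -0.73 with age in SD (limma adjusted p 0.85 and 0.29). At 8 wk only 2 of the 4 SD arrays had it well above background.

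Igfbp7, a more distant relative with low affinity for IGFs that is made by vessel walls, also followed the slide, which accounted for 88.5% of its variance. Its levels were highest on slide 1 in every group, while the unscaled intensity was lowest there except in SD at 8 wk. Group means lay between 7.31 ± 0.58 (SD, 8 wk) and 7.65 ± 0.57 (LD, 8 wk). At 8 wk SD was lower than LD on every slide, by -0.34, -0.59, -0.29 and -0.15. The mean difference of -0.34 had a 95% interval of -1.05 to 0.37 and a limma adjusted p of 1. Leaving out LD 8 wk replicate 1 moved it to -0.06 and leaving out SD 8 wk replicate 1 to -0.62, and quantile normalization gave -0.20 (SE 0.09, limma adjusted p 0.613). In the fit that blocks on slide the interval was -0.54 to -0.14 and the limma adjusted p 0.0746, so it was not called in either fit.

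Igfbp3, the main carrier of IGFs in blood, and Igfbp6, which prefers IGF2, were at or near background. Igfbp3 was above background on 0 of 16 arrays, with intensities from 1.77 to 6.91. Igfbp6 was above it on 8 of 16 arrays, with intensities from 5.47 to 33.9. No direction can be given for either, and whether these mouse probes bind the hamster transcripts was not tested.

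**Figure D5:**
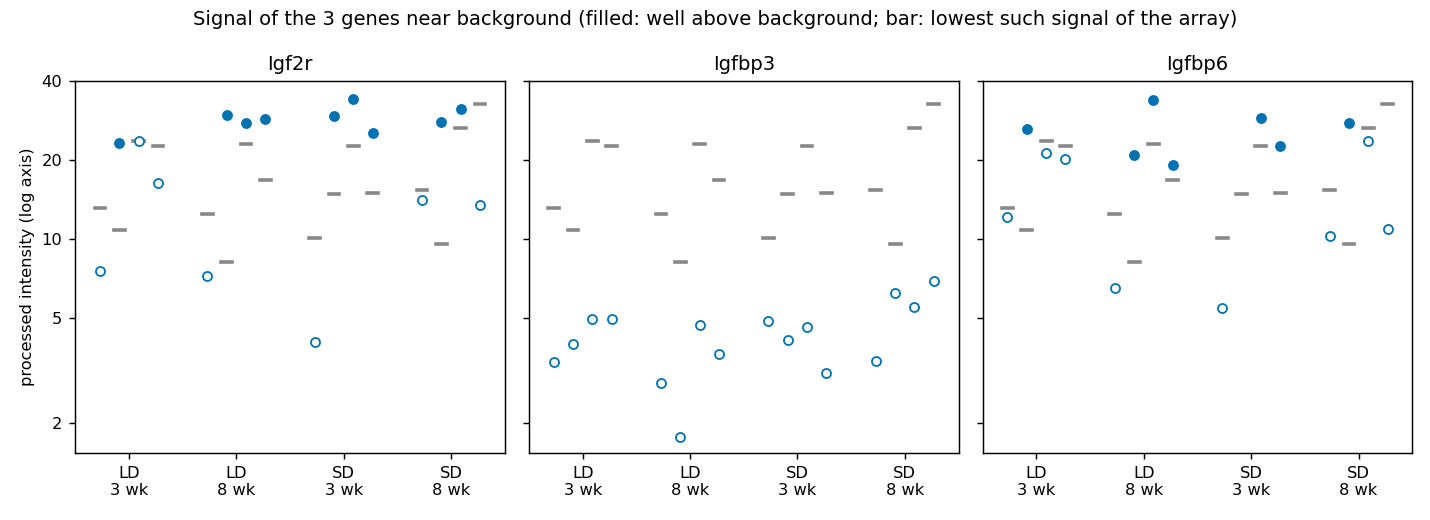
Processed intensity (log axis) of the probes of Igf2r, Igfbp3 and Igfbp6 on each array by group; filled points are well above background and grey bars mark the lowest signal on that array that was. Igfbp3 has no filled point and Igf2r has 9; Igfbp6 has 7, since 1 of its 8 arrays above background (SD, 3 wk, slide 2) had the spot flagged as an outlier and is not drawn.

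Across the 7 tested members the median difference was -0.08 in the SD age comparison, -0.02 in the LD age comparison, -0.29 between photoperiods at 8 wk and -0.14 at 3 wk. Over all identifiers the medians were 0.00, -0.04, -0.01 and -0.05. The family did not move as a block: in the SD age comparison 5 of the 7 values were negative and 2 positive, and between -1.97 and 0.85 those of Igf1r, Igfbp4, Igfbp5 and Igfbp7 lay within 0.12 of 0.

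With slide means taken off, the Igf1 level was most like that of identifiers TC1651824 (Pearson r = 0.97 over 16 arrays) and AK165186 (r = 0.96), for which no gene symbol was used here. Igf2 followed Igf1 with r = 0.85, and 176 of 18647 identifiers were more like Igf1 than Igf2 was. Igfbp2 ran against both, with r = -0.76 for Igf1 and -0.62 for Igf2. Of 18647 identifiers, 17593 were more like Igf1 than Igfbp2 was and 16985 more like Igf2, so others were more opposed to each ligand. Group means were left in, so the group differences given above enter these values. These values describe 16 arrays that share slides and groups, and carry no test.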

How the data were processed

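Total RNA was amplified, labelled with Cy3 and hybridised with 1 colour to a mouse array, per the labels' protocols. The authors extracted the 16 arrays with Agilent Feature Extraction 10.5.1.1, per the file headers, and the deposited files give each spot's background-corrected intensity on a linear scale, before any normalization between arrays. The deposited files also hold the flags used here, which mark outlier spots and spots well above background. No spot was saturated. The authors' deposited value table held the same intensity values rounded (within 0.5% but for 4 cells) and was an alternative.

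Spots flagged as outliers were left out, log2 intensities of a probe's spots were averaged, and each array's 75th percentile was subtracted. Probes had to be well above background on the 4 arrays of some group, and to be measured on 12 or more arrays and on 2 or more per group and per slide. An identifier was represented by its brightest probe. limma 3.58.1 in R 4.3.3 (lmFit, eBayes with an intensity trend) was fitted over all 16 arrays, with Benjamini-Hochberg adjustment over 20143 identifiers and a threshold of 0.05. The fit was also run on simulated arrays whose spread was drawn for each array alone. That run does not test how the fit handles deviations shared by the arrays of a slide.

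Slide was not in the fit. Arrays of a slide deviated from their group means together (median r = 0.451, lowest 0.224), so the fit with slide as a block is given where it changes a call. Hamsters were taken as separate animals because each has its own code in the labels. Replicate numbers are slide numbers, as the labels hold none.

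The members and lists were chosen with earlier results of these data known. All 10 members are named. Lists of other IGF pathway genes and of ovarian cell type markers are by symbol. No table of symbols was used here, so none could be matched, and member symbols come from the rule that chose the members. Alternatives covered normalization, background correction, filters, probes, the value table, slide, array weights and left-out arrays. Precision is limited by how few arrays there are.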

Additional observations from a re-analysis of the deposited data

Results flagged for a closer look

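Among the 37 groups of 4 member values examined, 6 had a sample far from the others by Dixon's test, where chance flags about 1 in 20. The Igf2 level was 2.21 in LD 3 wk replicate 1, with the nearest at 1.52. The Igf1r level was 2.18 in LD 8 wk replicate 1, with the nearest at 1.01. The Igf2r level was -6.04 in SD 8 wk replicate 4, where the probe was not well above background, with the nearest at -4.90. The Igfbp7 level of replicate 1 stood apart in LD at 3 wk (8.03 against 7.31), in SD at 3 wk (8.21 against 7.21) and in LD at 8 wk (8.49 against 7.47). Before scaling, the Igfbp7 intensity of replicate 1 was the lowest of each of these groups (96470, 80970 and 96580). The flagged Igf2 and Igf1r values likewise had the lowest unscaled intensity of their groups (1709 and 1217). These levels stood high only once the array's 75th percentile was subtracted. All but the Igf2r value lay on slide 1, which had the lowest 75th percentile of intensity. Without slide 1 the same members were called. Between photoperiods at 8 wk it was Igf2 (-1.09, limma adjusted p 0.0136), where 0.925% of all identifiers were called. In the SD age comparison they were Igf1, Igf2 and Igfbp2 (-1.80, -1.30 and 0.74, limma adjusted p 0.00646, 0.000863 and 0.039). There 12.9% of all identifiers were called, against 9.15% with all arrays.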

How the results depend on the processing

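The SD age comparison called Igf1, Igf2 and Igfbp2, and the number of members called was 2 or 3 in every fit with an array left out, where 5.63% to 7.79% of all identifiers were called against 9.15% with all arrays. Igf1 passed in it under all 21 alternatives (limma adjusted p 0.000162 to 0.0261). The comparisons at 3 wk, with age in LD and of the 2 age changes called 0 members under every alternative run. Over all identifiers these alternatives called 0% to 0.0199% at 3 wk and 0.0182% to 0.427% for the 2 age changes. With age in LD they called 1.09% to 11.9%. So few identifiers passed at 3 wk and for the age changes that 0 members there tells little of the family. With age in LD the share was 2.98% in the limma fit reported. A count of 0 members lies near that share and tells little of the family either. Between photoperiods at 8 wk the count depended on the setting. It was 1 in the limma fit reported (0.958% of all identifiers). It was 2, Igf1 and Igf2, with quantile normalization (1.08%), normexp (0.68%), slide as a fixed block (2.62%), slide as a random block (3.33%), array weights (1.73%) or the percentile taken over all spots (1.13%), with limma adjusted p for Igf1 from 0.00211 to 0.0494. It was 0 with the array median (0.933%), the mean of an identifier's probes (0.938%) or only the groups compared (0.407%), where Igf2 had limma adjusted p of 0.0682, 0.274 and 0.178. Leaving out 1 array gave 0 to 2, with 0.586% to 1.2% of all identifiers called. Without LD 8 wk replicate 1 the only member called was Igf1r, and without LD 8 wk replicate 3 it was Igf1, Igf2 being lost in both. Fitting only the groups compared also lost Igfbp2 in the SD age comparison (limma adjusted p 0.0782). Why these fits differ was not tested.

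Of 809 values of single members under 34 alternatives, 784 kept their side of the threshold, 9 crossed to a call and 16 lost one. The 784 include results that were not called and stayed so. Among the called results, Igf2 at 8 wk passed in 13 of 22 alternatives and Igfbp2 in the SD age comparison in 15 of 21. In that age comparison Igf1 passed in 21 of 21 and Igf2 in 21 of 22. No called value changed sign, and 60 values that were not called on either side did. The percentile over all spots and the other probes tested on their own were chosen after seeing the data. So was leaving out of normexp 41 spots on 6 arrays with a local background over 10 times the array's median, none of them a member's. No paired analysis was possible because the labels give no replicate numbers; slide as a block stands in its place. Signal over background limits Igf2r, Igfbp3, Igfbp6 and the dim probe of Igfbp5.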

Other observations

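With slide means taken off, the binding proteins Igfbp5 and Igfbp7 did not follow the ligands alike. Igfbp7 had r = 0.58 with Igf1 and 0.43 with Igf2 over 16 arrays, and -0.43 with Igfbp2. Igfbp5 had r = -0.18 with Igf1, -0.26 with Igf2 and 0.05 with Igfbp2. Among 18647 identifiers, 2603 were more like Igf1 than Igfbp7 was. These values are descriptions over arrays that share slides and groups.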
